A study of Mus musculus with 4 samples.

Results

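The ABC transporter genes are the 50 protein-coding genes, of 22367 in the mm9 annotation, whose symbol is *Abca*, *Abcb*, *Abcc*, *Abcd*, *Abce*, *Abcf* or *Abcg* followed by a digit. The rule takes them by symbol alone, without any measured value. The family, and the lists that group its genes by role below, were however chosen with earlier results of these data known. The subfamilies hold 16 *Abca*, 10 *Abcb*, 10 *Abcc*, 4 *Abcd*, 1 *Abce*, 3 *Abcf* and 6 *Abcg* genes. Their position was read from maps of chromatin at the nuclear envelope (NE) in primary hepatocytes of Tm7sf2+/+ (WT) mice and of mice lacking Tm7sf2 (also called NET47; KO), all on a C57BL/6 background and aged 12 to 16 weeks. Tm7sf2 is a sterol reductase of the endoplasmic reticulum and NE, and the comparison asks which genes change their contact with the NE when it is absent. Hepatocytes of both genotypes were cultured and transduced for 24 h with a lentivirus for either the DNA methylase Dam fused to LaminB1 or Dam alone, and harvested 60 h after transduction. There are thus 4 libraries, and the DNA of 4 mice was pooled for each.

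DamID marks GATC sites that come close to the lamina, and the Dam-only library corrects for how open the DNA is. The deposited lists give, for each genotype, the lamina-associated domains (LADs) and the differential regions (DRs), which are stretches of at least 10 kb in a LAD of only that genotype. The lists hold 8107 WT LADs, 16076 KO LADs, 7787 WT-only DRs and 8208 KO-only DRs. They carry positions only, with no signal, score or read number, and the study describes fewer usable reads for the KO than for WT. What part the depth has in the differences below was not tested. With 1 pooled library pair per genotype there is no spread between animals, so no value below has an error or a p-value, and genes are not replicates. The lists also hold no expression, so the hepatocyte label could not be checked against marker genes.

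ABC transporters use ATP to move lipids, bile salts, drugs and metabolites across membranes. In hepatocytes a set of them sits in the canalicular membrane and makes bile, another set sits in the sinusoidal membrane and returns conjugates to the blood, and others load sterols onto lipoproteins or serve mitochondria, peroxisomes and lysosomes. The *Abce* and *Abcf* proteins have the ATP-binding domains without a membrane domain and act in translation. Many family members arose by tandem duplication and still lie side by side.

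Each gene was classed by its span. A gene that shared at least 1 base with a WT-only DR was called PI (at the periphery in WT, interior in the KO), a gene on a KO-only DR IP (interior in WT, periphery in the KO), and a gene on both kinds ambiguous (AMB). The rest were PP where LADs of both genotypes touched them and II otherwise. Of the 50 members, 11 were IP, 6 PI, 1 AMB, 3 PP and 29 II. The IP members made up 22% of the family against 17.1% of all protein-coding genes. The PI members made up 12% against 5.43%, the AMB member 2% against 2.96%, the PP members 6% against 17.9%, and the II members 58% against 56.6%. In all, 18 members (36%) overlapped a DR, where 25.5% of all genes did.

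The share on a DR went with gene length. The members had a median length of 64.6 kb (range 8.68 to 492 kb) and all genes 15.4 kb, and a longer span meets more borders. Among genes of at least 50 kb, 17 of 31 members overlapped a DR (54.8%), close to the 54.5% of all genes of that length. The 11 IP members were all in this length class, 35.5% of it against 30.9% of all such genes, and 5 of the PI members were in it (16.1% against 11.1%). Of the 19 members under 50 kb only *Abcd2* lay on a DR, which is 5.26% against 17.5% of all genes under 50 kb. By class of length, 0 of 9 members under 20 kb (13.9% of all genes), 1 of 10 from 20 to 50 kb (26.7%) and 7 of 19 from 50 to 100 kb (41.5%) lay on a DR. Over 100 kb, 10 of 12 members lay on a DR (83.3% against 67.8%). These counts are small and the differences within length classes go both ways, so nothing particular to the family is read from them.

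**Figure D1:**
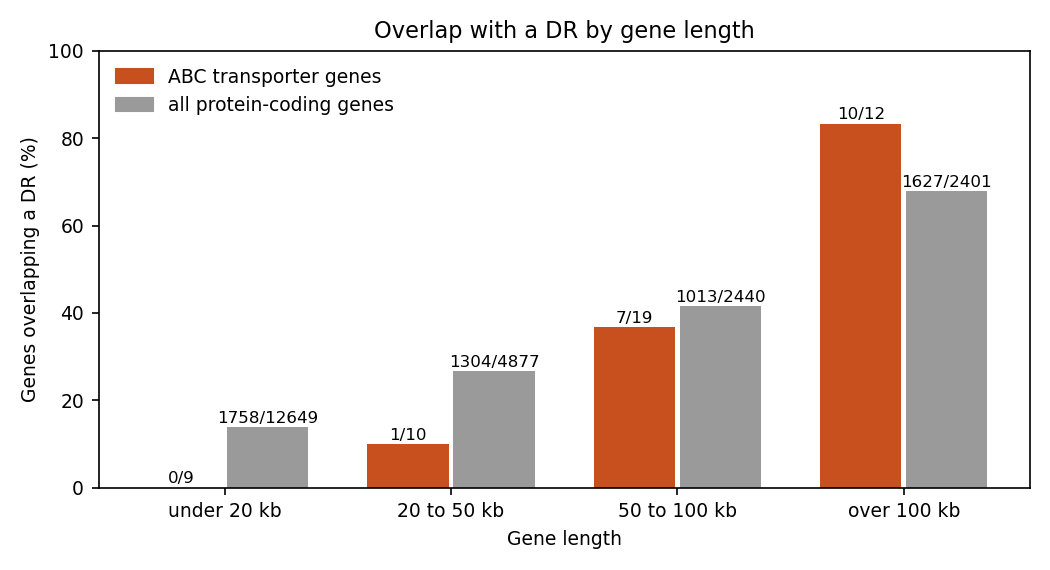
Share of genes overlapping a DR (percent, bars from 0) in 4 classes of gene length, for ABC transporter genes and for all protein-coding genes, with the counts above each bar. The share rises with length in both sets, from 0 of 9 members under 20 kb to 10 of 12 members over 100 kb.

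Counted in bases, the members spanned 3.83 Mb, of which 1317 kb (34.4%) lay in WT LADs and 1525 kb (39.8%) in KO LADs. KO-only DRs took 443 kb of the members' spans (11.6%) and WT-only DRs 241 kb (6.29%). The same values over all genes were 38.3% and 42.3% in LADs, 9.15% in KO-only and 5.01% in WT-only DRs. The members' balance was therefore tilted to the KO-only side, as that of all genes was. The median member had none of its span in a LAD of either genotype, and so had the median gene. In the 1 Mb centered on each gene, a median of 9.82% lay in WT LADs and 14.0% in KO LADs for the members, against 23.2% and 28.7% for all genes.

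The plot of gene shares, which draws 20 of them, shows that the 21 members on a LAD differed between the genotypes in both directions and by anything from none to most of the span. The share of an IP member taken by KO-only DRs ran from 0.585% at *Abcb4* to 88.6% at *Abcb1a*, with a median of 26.7% (42.8% for all IP genes). For the PI members the share in WT-only DRs ran from 5.004% at *Abca13* to 91.1% at *Abca15*, with a median of 31.6% (34.9% for all PI genes). In the KO, 7 members without a WT LAD carried a LAD, and 2 members with a WT LAD, *Abca9* and *Abcd2*, carried none. These counts were not made over all genes, and the KO list holds 16076 LADs against 8107 in WT, so nothing about the family is read from them.

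**Figure D2:**
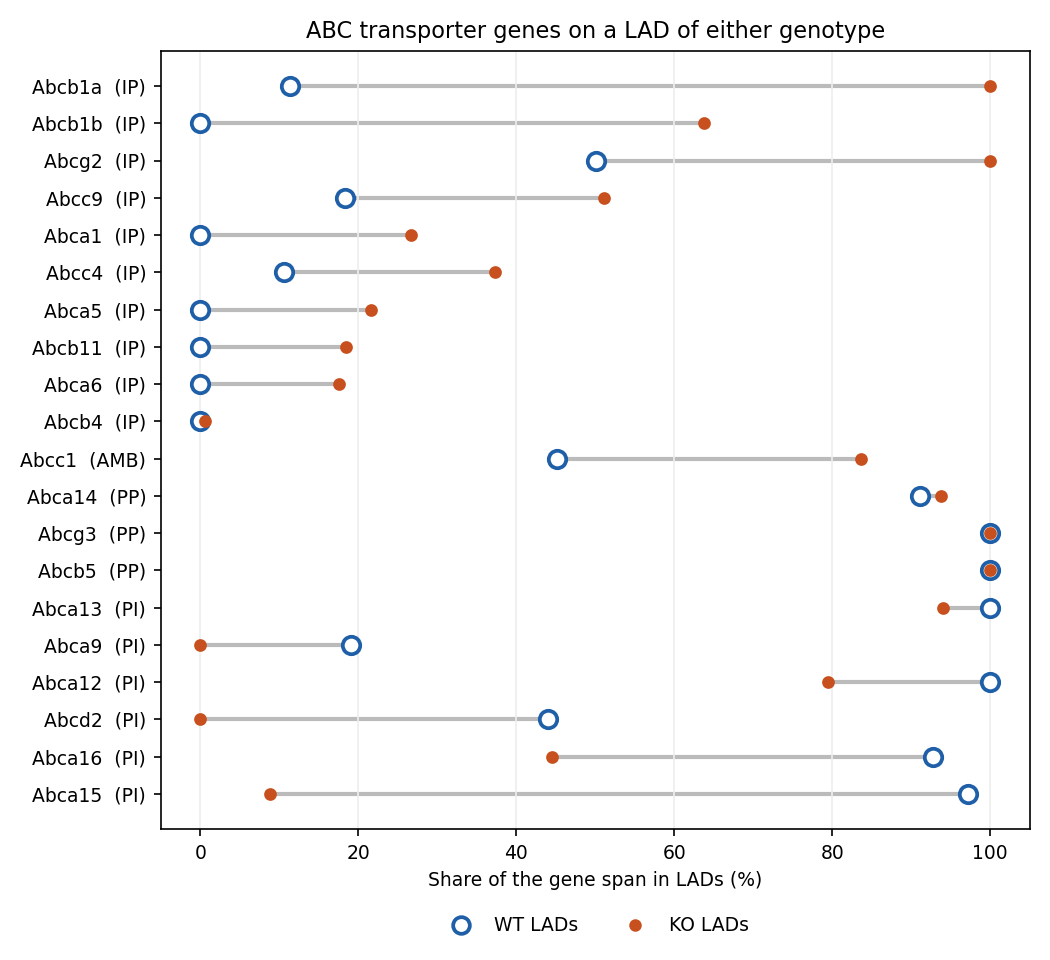
Share of the gene span in LADs (percent) for 20 ABC transporter genes on a LAD of either genotype, with the class in brackets; open blue circles are WT LADs, filled orange circles KO LADs, and each line joins the 2 values of a gene. Abcb1a has 11.4% in WT and 100% in the KO, Abca15 97.1% and 8.86%, and the 2 values of Abcb4 nearly coincide.

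Among the role lists, which were written with earlier results of these data known, the canalicular transporters held the most IP genes. Of 8, 5 were IP (*Abcb11*, *Abcb4*, *Abcb1a*, *Abcb1b* and *Abcg2*), 3 were II (*Abcc2*, *Abcg5* and *Abcg8*) and none was PI. That is 62.5% IP, against 17.1% of all genes. Of genes of at least 50 kb, a length that *Abcg5* and *Abcg8* do not reach, 30.9% were IP. The counts are too small, and the list is not blind to the data, so nothing more is read from this share. *Abcb11* and *Abcb4* were II when only LADs or only DRs of at least 20 kb were counted, which left 3 IP genes of the 8. With at least 10% of the span on a DR asked for, *Abcb4* was II. With at least 50%, only *Abcb1a* and *Abcb1b* were IP. *Abcg2* was PP at 50%, by its start alone and with LADs joined over gaps of at most 50 kb. The 5 IP genes were between 65.5 and 108 kb long and the 3 II genes between 24.03 and 55.8 kb. Of the IP genes, 3 are neighbors and 2 of these share a KO LAD, so they are not independent observations.

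*Abcb1a*, *Abcb1b* and *Abcb4* lie in this order on the plus strand of chromosome 5, within 299 kb (positions 8660077 to 8959225). The first 2 encode the mouse P-glycoproteins, which pump drugs out of the cell, and *Abcb4* encodes the floppase that brings phosphatidylcholine into bile. LADs covered 17.5% of this stretch in WT and 67.3% in the KO, and 149 kb of it was in 4 KO-only DRs and none in a WT-only DR. Every one of these genes has 28 exons in the transcript used here, and a different part of each was in a KO LAD only.

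*Abcb1a* (88.5 kb, chr5:8660077-8748575) lay 11.4% in WT LADs and 100% in KO LADs. A KO-only DR of 90.8 kb, the 66th longest of 8208, took in its start and exons 1 to 24, and exons 25 to 28 were in LADs of both genotypes. That DR filled a gap between WT LADs: the KO LAD was 501 kb long and 5 WT LADs overlapped it, covering 69.4% of its bases. *Abcb1b* (68.2 kb, chr5:8798147-8866314) went from 0% to 63.8%. The same KO LAD ran on over its start and exons 1 to 8, and a separate KO LAD of 30.3 kb covered exons 22 to 28, with exons 9 to 21 outside LADs in both genotypes.

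*Abcb4* (65.5 kb, chr5:8893717-8959225) was IP by the smallest margin of the family, with 0.585% of its span in a KO LAD. That LAD of 14.6 kb lay upstream and ended 0.383 kb into the gene, past the start and exon 1 and within exon 2. The other 26 exons were in no LAD. Among these 3 genes the nearest WT LAD was 7.13 kb from *Abcb1b* and 103 kb from *Abcb4*.

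The borders of LADs fall on GATC sites, since these are what Dam methylates, and the bases around a few borders are printed to show where each gene is divided. Each line holds 30 bases on either side of the border, on the plus strand of mm9, with GATC in capitals. All are borders of KO-only DRs, and in *Abcb4* the border cuts the exon that holds the start codon (atg), which directly precedes the GATC.
Abcb1a, right border, chr5:8738492-8738551: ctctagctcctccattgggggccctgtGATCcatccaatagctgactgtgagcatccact
Abcb1b, right border, chr5:8816372-8816431: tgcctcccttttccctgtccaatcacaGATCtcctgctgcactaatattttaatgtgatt
Abcb1b, left border, chr5:8841063-8841122: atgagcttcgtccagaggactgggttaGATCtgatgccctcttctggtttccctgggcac
Abcb4, right border, chr5:8894070-8894129: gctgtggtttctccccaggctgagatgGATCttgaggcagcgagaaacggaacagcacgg
The *Abcb1a* border is in intron 24, 78.4 kb from the start. Those of *Abcb1b* are in introns 8 and 21, so the middle of this gene is outside the KO LADs and both ends are inside.

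**Figure D3:**
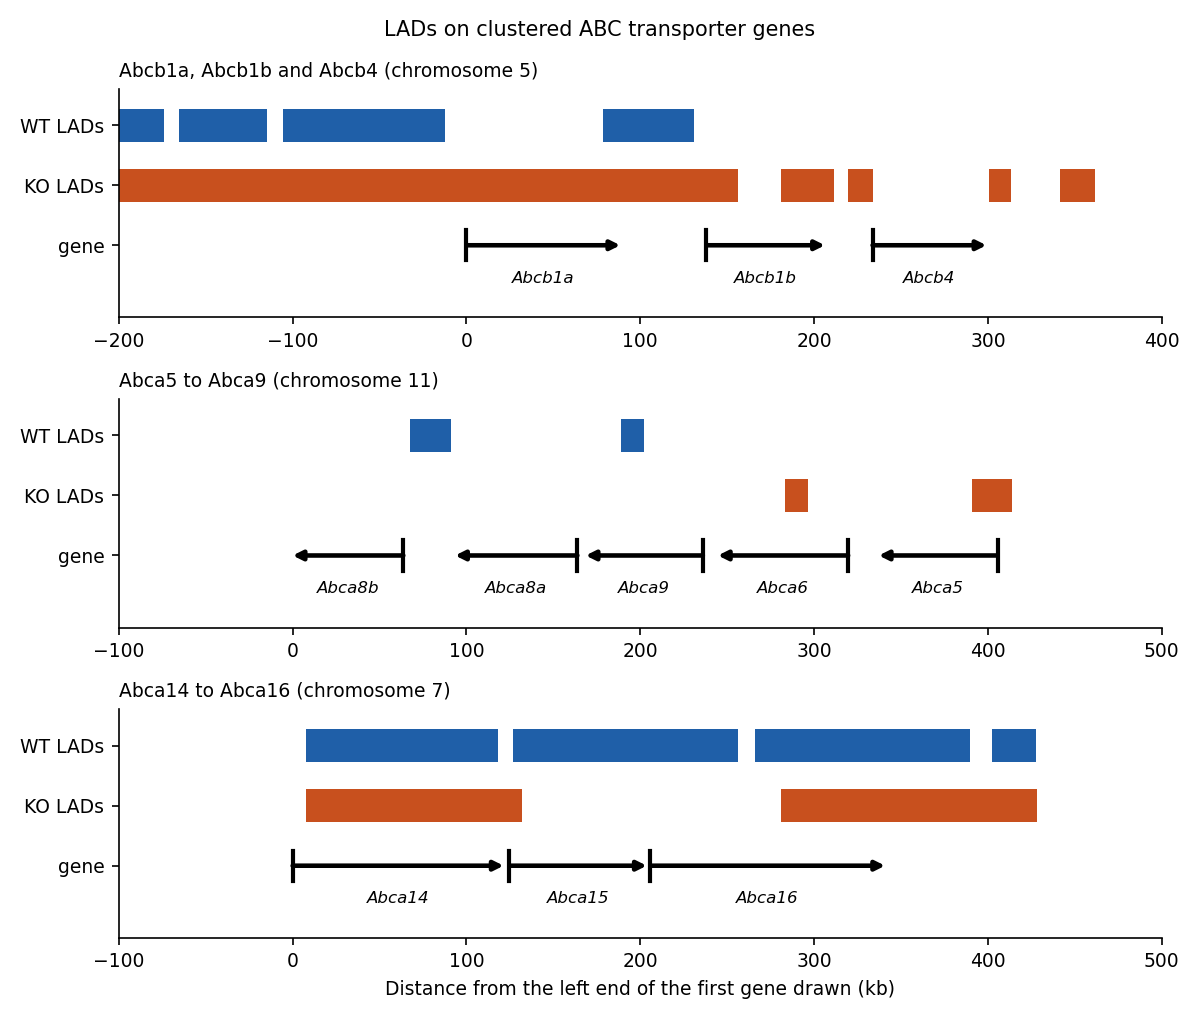
LADs of WT (blue) and KO (orange) over the Abcb1a to Abcb4 stretch of chromosome 5, the Abca8b to Abca5 stretch of chromosome 11 and the Abca14 to Abca16 stretch of chromosome 7, with distance from the left end of the first gene drawn on the horizontal axis (kb); bars are start sites and arrows point in the direction of transcription. KO LADs fill most of the first stretch, no LAD base is shared in the second, and a WT LAD over Abca15 and the first part of Abca16 is almost wholly outside KO LADs in the third.

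*Abcb11*, the bile salt export pump, had its nearest WT LAD 499 kb away and carried 1 KO LAD inside the gene. The gene is 104 kb long on the minus strand of chromosome 2 (chr2:69076339-69180671), and the KO LAD of 19.2 kb, with 38 GATC sites, covered 18.4% of it, with exons 19 to 23 of 29. The start was 63.7 kb from that LAD and outside LADs in both genotypes. The left border is at the junction of exon 24 and intron 23, and the right border is in intron 18.
Abcb11, left border, chr2:69097752-69097811: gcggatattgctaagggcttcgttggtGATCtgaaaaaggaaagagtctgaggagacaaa
Abcb11, right border, chr2:69116966-69117025: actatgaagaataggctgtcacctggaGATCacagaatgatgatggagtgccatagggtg

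*Abcg2*, an efflux pump for drugs and urate, was already in LADs at its start in WT. Its span (108 kb, chr6:58534517-58642863) was 50.1% in 4 WT LADs and 100% in a single KO LAD of 1138 kb. The KO-only DR was the gap of 36.2 kb between 2 of those WT LADs, which holds exon 2, and 2 further gaps of 8.25 and 9.64 kb, also filled in the KO, were under the 10 kb minimum of a DR. The right border of the DR lies in the coding sequence of exon 3.
Abcg2, left border, chr6:58577396-58577455: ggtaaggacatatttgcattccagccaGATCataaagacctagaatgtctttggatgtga
Abcg2, right border, chr6:58613584-58613643: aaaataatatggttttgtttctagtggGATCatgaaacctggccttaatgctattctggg

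The 3 canalicular genes without a LAD lay 50.7 kb or more from any. *Abcc2*, which exports conjugated bilirubin, lay 395 kb from the nearest WT LAD and 329 kb from the nearest KO LAD, and it is the only member on chromosome 19. *Abcg5* and *Abcg8* encode the subunits of the canalicular sterol pump and overlap by 6.71 kb on opposite strands of chromosome 17. They lay 50.7 and 68.7 kb from the nearest WT LAD and 95.3 and 113 kb from the nearest KO LAD, so that here the WT LAD was the closer.

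Of 6 sinusoidal and related *Abcc* transporters, 1 was IP (*Abcc4*), 1 was AMB (*Abcc1*) and 4 were II (*Abcc3*, *Abcc5*, *Abcc6* and *Abcc10*). These are 16.7% IP, 16.7% AMB and 66.7% II, against 17.1%, 2.96% and 56.6% of all genes. Both *Abcc4* and *Abcc1* are over 100 kb long. At that length 67.8% of all genes were on a DR and 20.5% were AMB. *Abcc4*, which exports bile acids and nucleotides across the sinusoidal membrane, is 224 kb long on chromosome 14 (chr14:118881914-119105441, minus strand). It was 10.6% in WT LADs and 37.3% in KO LADs, all in the 3′ part. The 3 KO-only DRs on it were 10.05, 35.1 and 14.4 kb long, the first of them close to the 10 kb minimum (rank 8166 of 8208) and the last wholly inside intron 19. Its start was 94.5 kb from the nearest KO LAD and 189.7 kb from the nearest WT LAD.

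*Abcc1*, a pump for glutathione conjugates, was the only member to overlap DRs of both kinds. Its span (114 kb, chr16:14361651-14475830, plus strand) was 45.2% in WT LADs and 83.7% in KO LADs, so the balance was on the KO side, with 54.8% of the gene in 3 KO-only DRs and 16.3% in 1 WT-only DR. Exons 1 to 5, 15 to 23 and 31 were in KO LADs only, exons 8 to 12 in WT LADs only and the other 11 in LADs of both. The start was in a KO LAD, and the nearest WT LAD was 15.6 kb from it. The WT-only DR of 18.6 kb runs from intron 7 to intron 12 and is the stretch where this gene differs in the other direction, so its borders are shown.
Abcc1, left border, chr16:14409435-14409494: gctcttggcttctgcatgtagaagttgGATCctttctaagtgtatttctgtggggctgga
Abcc1, right border, chr16:14428063-14428122: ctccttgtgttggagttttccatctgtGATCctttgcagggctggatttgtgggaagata

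Among 6 genes of sterol efflux, *Abca1* alone was on a DR (16.7%, against 25.5% of all genes). Over 100 kb, the length class of *Abca1*, 67.8% of all genes were on a DR. *Abca1* encodes the transporter that hands cholesterol and phospholipids to apolipoprotein A-I, the first step of HDL formation. The gene is 129 kb long on the minus strand of chromosome 4 (chr4:53043659-53172767), and its span went from 0% in WT LADs to 26.7% in KO LADs. The KO-only DR was a separate KO LAD of 34.5 kb (chr4:53058265-53092717, 106 GATC sites, rank 1296 of 8208) that no WT LAD touched. It covered exons 18 to 39 of 50, and exons 1 to 17 and 40 to 50 were in no LAD. The start was outside LADs, but another KO LAD began 5.54 kb upstream of it, where the nearest WT LAD was 157 kb away. The borders lie in introns 39 and 17.
Abca1, left border, chr4:53058235-53058294: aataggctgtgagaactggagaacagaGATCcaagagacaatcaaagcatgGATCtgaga
Abca1, right border, chr4:53092688-53092747: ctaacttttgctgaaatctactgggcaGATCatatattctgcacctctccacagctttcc

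The other five sterol genes, *Abca7*, *Abcg1*, *Abcg4*, *Abcg5* and *Abcg8*, were II. *Abcg1*, which passes cholesterol to HDL, was the one whose surroundings differed most, with 1441 kb to the nearest LAD in WT and 48.9 kb in the KO. *Abca7* lay 499 and 507 kb from the nearest WT and KO LAD, and the brain gene *Abcg4* 2117 and 775 kb. No LAD of either genotype therefore touched these genes, at distances from 48.9 to 2117 kb.

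**Figure D4:**
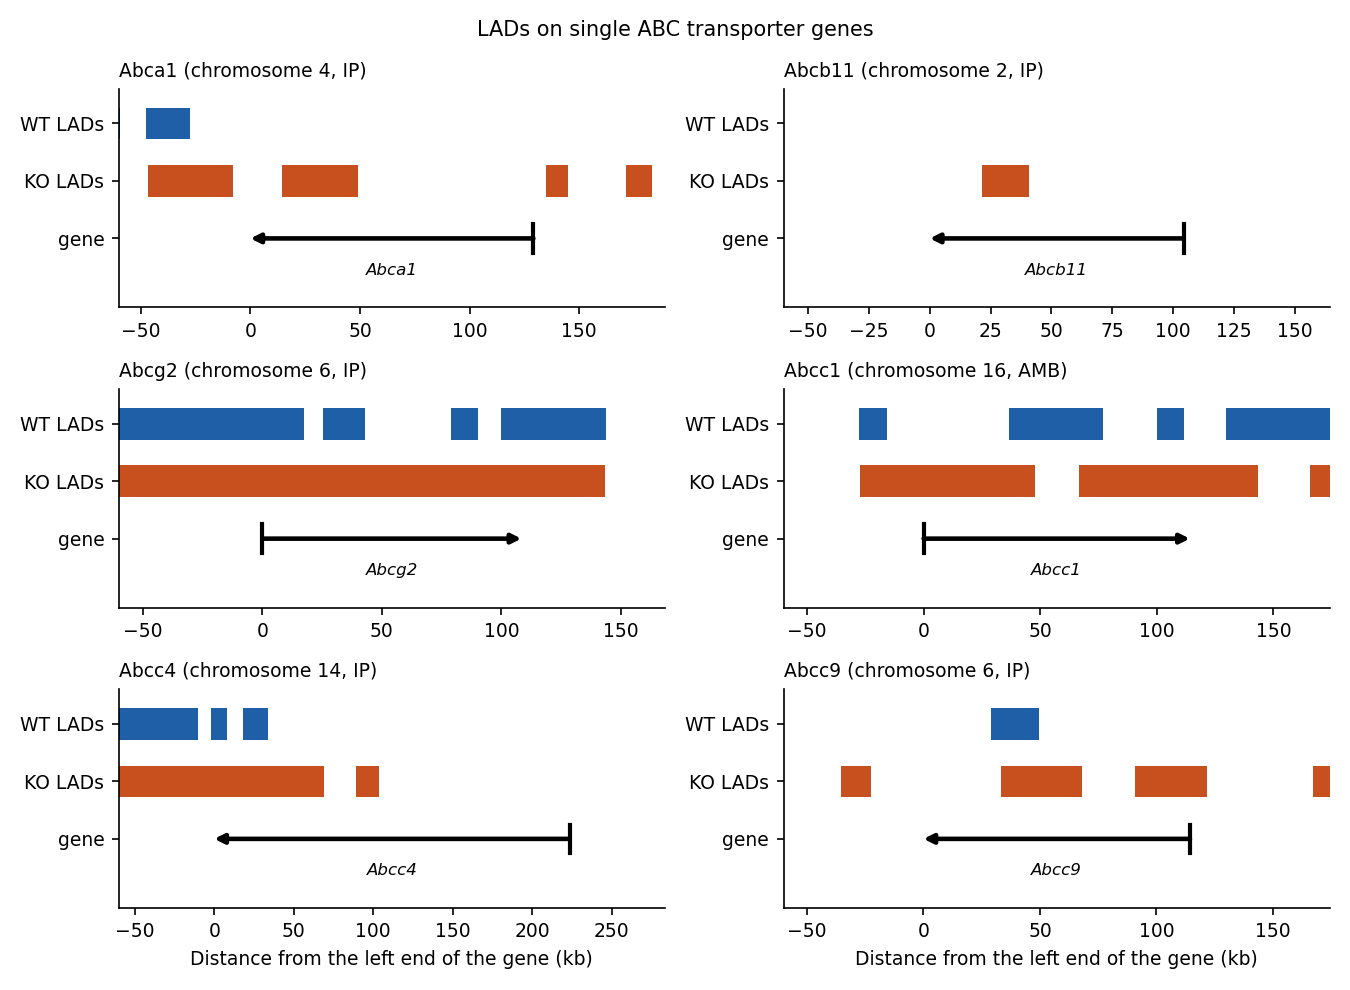
LADs of WT (blue) and KO (orange) over Abca1, Abcb11, Abcg2, Abcc1, Abcc4 and Abcc9, with distance from the left end of each gene on the horizontal axis (kb); the bar is the start site and the arrow points in the direction of transcription. Abca1 and Abcb11 carry a separate KO LAD away from the start, Abcg2 is wholly inside a KO LAD, and Abcc1 has stretches of both kinds.

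The *Abca6* group, 5 genes of the *Abca* subfamily in tandem on the minus strand of chromosome 11, shared no LAD base between the genotypes. In the 406 kb from *Abca8b* to *Abca5* (positions 109793504 to 110199030) there were 2 WT LADs with 36.4 kb and 2 KO LADs with 27.9 kb, and all 4 were DRs. The WT LADs were at the 3′ side of the row, the KO LADs at its 5′ side. *Abca9* was PI, with 19.1% of its span and exons 23 to 25 of 39 in a WT LAD of 12.9 kb and 0% in KO LADs. *Abca6* was IP, with 17.5% and exons 12 to 17 in a KO LAD of 13.1 kb. *Abca5* was IP, with 21.6%, exons 1 to 4 and its start in a KO LAD of 23.4 kb.

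The last 2 genes of the row had no LAD on their spans. *Abca8a* and *Abca8b* were 2.41 and 3.85 kb from a WT LAD that took 79.0% of the 29.8 kb between them, and 119.7 and 220 kb from the nearest KO LAD. These were the shortest distances to a WT LAD among the members without a LAD. Classes set by such short LADs rest on few GATC sites, and the *Abca9* and *Abca6* LADs held 28 and 47.

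The rodent genes *Abca14*, *Abca15* and *Abca16*, known from testis, lie in a row on the plus strand of chromosome 7 and differed mostly in the other direction. In the 341 kb from *Abca14* to *Abca16*, LADs covered 92.3% in WT and 54.1% in the KO, with 139 kb in WT-only DRs and none in a KO-only DR. A WT-only DR of 124 kb, the 16th longest of 7787 with 278 GATC sites (chr7:127479194-127603677), was shared by 2 of them. *Abca15* (79.0 kb) went from 97.1% to 8.86% of its span in LADs with exons 5 to 31 of 31 in WT LADs only. *Abca16* (135 kb) went from 92.7% to 44.5% with its start and exons 1 to 10 in WT LADs only, as were exons 12 to 15 through a second DR of 14.7 kb.

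*Abca14* (121 kb) was PP, with 91.1% in WT LADs and 93.7% in KO LADs. Its KO LAD ran on over the gap of 8.77 kb that separates its WT LAD from the next one. This gap holds the start of *Abca15*, which was thus in a KO LAD only, although *Abca15* was PI. That stretch was under 10 kb and so is no DR. *Abca17*, the fourth of these rodent genes, is on chromosome 17 and was II, 728 kb from the nearest WT LAD and 738 kb from the nearest KO LAD.

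Of 5 lipid transporters known from other tissues, 2 were PI, both over 100 kb long, a length at which 15.9% of all genes were PI. *Abca13*, the longest member (492 kb, chromosome 11), was 100% in a WT LAD of 1885 kb and 94.0% in KO LADs. Its only DR, of 24.6 kb, took exons 52 to 55 of 62, and its start was outside the KO LADs through a difference of 9.22 kb, under the minimum for a DR. *Abca12*, which moves lipids in the skin barrier (172 kb, chromosome 1), was 100% in a WT LAD of 419.9 kb and 79.4% in 4 KO LADs. Its 2 WT-only DRs of 15.6 and 11.7 kb took exons 21 to 29 and exon 3 of 53, exon 11 was in a WT-only stretch of 8.11 kb that is no DR, and its start was in LADs of both genotypes. *Abca2*, *Abca3* and *Abca4*, known from brain, lung and retina, were II.

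*Abcd2*, a peroxisomal transporter of very long chain fatty acids, was PI. A WT LAD of 25.5 kb covered 44.1% of its span on chromosome 15 (45.9 kb) with exons 7 to 10 of 10, and no KO LAD touched the gene, although 1 lay 1.58 kb upstream of its start. *Abcd3*, another peroxisomal member, was II. The nearest KO LAD was 10.7 kb from *Abcd3*, where the nearest WT LAD was 636 kb away. The mitochondrial *Abcb6*, *Abcb8* and *Abcb10* and the lysosomal *Abcb9* and *Abcd4* were II too.

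The subunits of ATP-sensitive potassium channels differed from each other. *Abcc9*, the regulatory subunit known from muscle, was IP. Its span (114 kb, chr6:142536382-142650794, minus strand) was 18.3% in WT LADs and 51.1% in KO LADs. A separate KO LAD of 30.9 kb covered its start and exons 1 to 11, and a second KO-only DR of 18.2 kb added exons 18 to 24 to a LAD that both genotypes had. *Abcc8*, the subunit known from pancreatic beta cells, was II, with a KO LAD 4.66 kb from its start and the nearest WT LAD 262 kb away.

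*Abcb5* (98.6 kb, chromosome 12) and *Abcg3* (47.7 kb, chromosome 5) were 100% in LADs of both genotypes. *Abcc12* and the 4 genes of proteins without a membrane domain, *Abce1* and *Abcf1* to *Abcf3*, were II. The last 4 are between 12.1 and 28.3 kb long, and *Abce1* was the closest of them to a LAD, at 25.2 kb in WT and 43.1 kb in the KO.

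Over all 29 members without a LAD on the span (56% of all genes had none), the nearest WT LAD was a median of 430 kb away (2.41 to 2176 kb) and the nearest KO LAD a median of 143 kb (4.66 to 1481 kb). The 12518 genes of the genome without a LAD gave medians of 401 and 119 kb. The KO LAD was the nearer for 19 of the 29 members (65.5%) and for 83.6% of all such genes. The farthest member in both genotypes was *Abcd4*. The KO list holds more LADs than the WT list over a like length of genome (1489.9 Mb, against 1472 Mb), and what part that has in these distances was not tested.

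**Figure D5:**
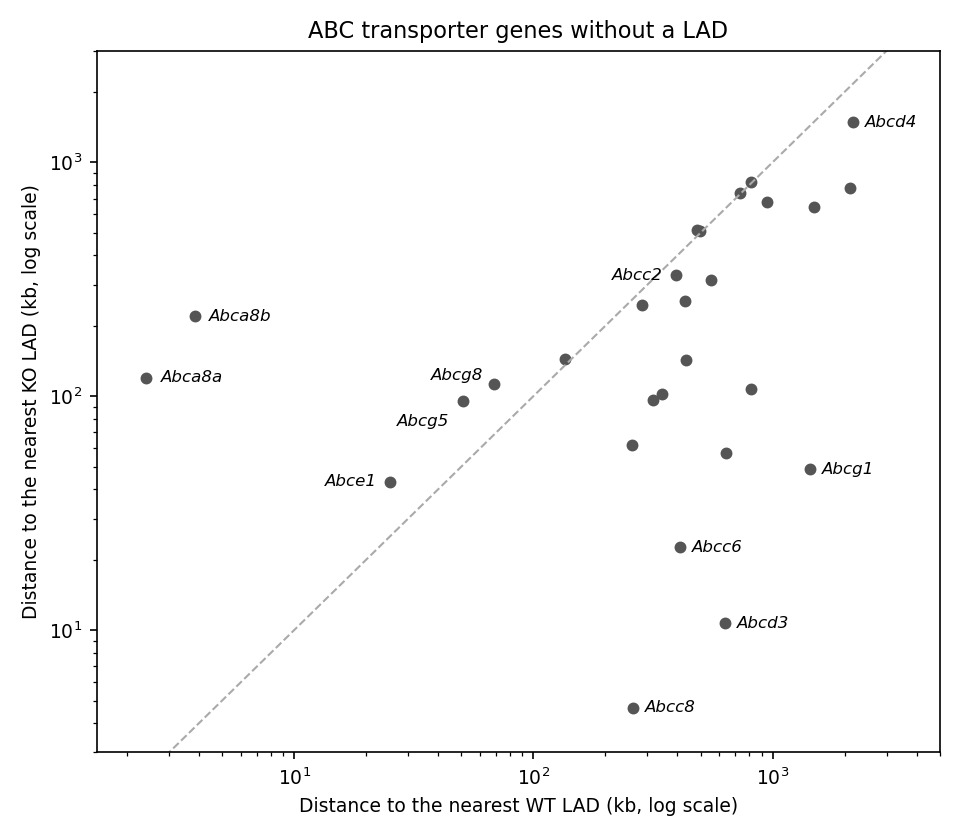
Distance from the gene to the nearest WT LAD (horizontal) and to the nearest KO LAD (vertical), both in kb on a log scale, for 28 of the 29 ABC transporter genes without a LAD; each point is a gene and the dashed line marks equal distances. In all, 18 of these genes lie below the line, Abcg1, Abcc6, Abcd3 and Abcc8 farthest, and Abca8a and Abca8b lie well above it.

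The transcription start was also read on its own. It was in a WT LAD for 6 members and in a KO LAD for 11 (22.7% and 32.8% of all genes). For 4 members it was in both, for 7 in a KO LAD only and for 2, *Abca13* and *Abca16*, in a WT LAD only. In KO-only DRs were the starts of *Abcb1a*, *Abcb1b*, *Abcb4*, *Abcc1*, *Abcc9* and *Abca5*, 6 of 50 members where 12% of all genes had theirs. *Abca16* was the 1 member with its start in a WT-only DR (2.23% of all genes). Of the 1421 exons of the members, 126 were in KO LADs only, 70 in WT LADs only, 225 in LADs of both and 1000 in neither. Neither this split of exons nor that of starts into both, KO LAD only and WT LAD only was made over all genes.

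The 250 bases before those 7 starts were searched on both strands for short motifs, and each window was scored by whether it held the motif. The GC box, searched as GGGCGG, was in 6 of the 7 windows (all but that of *Abca16*) and in 39.6% of the windows of all genes. The motif CCAAT was in 3 of them, those of *Abca16*, *Abcb1b* and *Abcb4*, and in 35% of all. The Dam site GATC was in the windows of *Abcb4* and *Abcc9* and in 40.2% of all. The TATA box, searched as TATAAA, was in 0 of the 7 and in 12.3% of all. The 7 windows are few, and 3 of them belong to neighboring genes. The windows of the other members were not counted apart, so nothing is read from these shares. The windows of the 3 canalicular genes are printed in the direction of transcription, since these starts were in KO-only DRs within a common stretch of chromosome 5. Capitals mark GATC, which is missing from the first and second windows.
Abcb1a, chr5:8659827-8660076: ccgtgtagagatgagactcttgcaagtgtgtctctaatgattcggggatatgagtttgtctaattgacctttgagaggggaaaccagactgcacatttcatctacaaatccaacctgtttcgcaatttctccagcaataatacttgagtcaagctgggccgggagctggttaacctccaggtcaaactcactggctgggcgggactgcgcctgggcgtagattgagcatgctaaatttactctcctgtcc
Abcb1b, chr5:8797897-8798146: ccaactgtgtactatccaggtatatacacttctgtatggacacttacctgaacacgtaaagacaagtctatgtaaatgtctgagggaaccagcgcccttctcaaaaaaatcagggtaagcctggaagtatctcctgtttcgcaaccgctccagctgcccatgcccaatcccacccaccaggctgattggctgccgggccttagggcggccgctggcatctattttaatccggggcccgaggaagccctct
Abcb4, chr5:8893467-8893716: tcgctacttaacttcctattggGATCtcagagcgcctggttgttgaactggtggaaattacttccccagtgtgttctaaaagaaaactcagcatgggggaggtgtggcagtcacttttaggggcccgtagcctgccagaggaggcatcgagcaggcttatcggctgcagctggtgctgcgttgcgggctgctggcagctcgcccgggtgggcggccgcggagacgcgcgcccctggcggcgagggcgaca

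The number of GATC sites limits how finely a border can be placed. The members held a median of 2.40 sites per kb (1.64 to 3.56), and all genes 2.41. The read depth at these sites is unknown here, so how finely the family was read was not tested. The DRs on members held between 21 sites, in the shortest on *Abcc4*, and 278. Of the 18 KO-only DRs on members 9 were whole KO LADs (50%, against 52.2% of the full list), and the other 9 widened or joined LADs present in WT. Of the 8 WT-only DRs 2 were whole WT LADs, those of *Abca9* and *Abcd2*, which is 25% against 12.8% of the full list.

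A list of 26 related genes was read in the same way. Most of them work with these transporters, and 3 (*Cftr*, *Tap1* and *Tap2*) are ABC family members under another symbol. The list held 2 IP (7.69%, against 17.1% of all genes), 2 PI (7.69% against 5.43%), 2 PP (7.69% against 17.9%) and 20 II genes (76.9% against 56.6%). All 6 receptors for sterols, bile acids and drugs (*Nr1h2*, *Nr1h3*, *Nr1h4*, *Nr1i2*, *Nr1i3* and *Rxra*) and all 7 genes of lipid acceptors and handling (such as *Apoa1*, *Apoe*, *Lcat* and *Scarb1*) were II, the class of 56.6% of all genes. *Pex3*, which brings membrane proteins such as the *Abcd* transporters into peroxisomes, was wholly in a KO-only DR, with its start and all 12 exons and 0% in WT LADs. *Kcnj8*, the pore subunit that pairs with the *Abcc9* product, was IP with 8.59% of its span and 1 of 3 exons.

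On the PI side were *Cftr*, an ABC family member under another symbol, with a WT-only DR over 6.75% of its span, and *Slco1a4*, an uptake transporter for organic anions, with 55.3%. *Cftr* was 100% in WT LADs and 93.3% in KO LADs, *Slco1a4* 87.6% and 32.3%. The neighboring uptake genes *Slco1a1* and *Slco1b2* were PP, with 62.1% and 67.3% in WT LADs and 47.2% and 74.9% in KO LADs. *Slc10a1*, the bile salt uptake transporter, was II.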

How the data were processed

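Hepatocytes were profiled with Dam-LaminB1 and with Dam only, 1 library each for WT and KO. The authors mapped the reads to mm9, compared the 2 constructs as a log2 ratio for every *DpnI* fragment, and divided that profile into LADs with circular binary segmentation. The processing notes of the submitters also name BWA and limma. The deposited lists hold interval positions only, so the depth behind a border is unknown here and no interval or floor could be given. The KO libraries were, per the study, the less deeply sequenced.

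Repeating the subtraction of the LAD lists with a minimum of 10 kb returned all 7787 WT-only and 8208 KO-only DRs. A GATC lay at 98.9% of WT and 99.5% of KO LAD borders. Genes and exons were those of GENCODE release M1 on NCBIM37, the same assembly as mm9, with the protein-coding transcript of most exonic bases per gene. Positions are 1-based. Overlaps were computed with Python 3.11.15 and figures drawn with matplotlib 3.10.9, and the interval steps were tested on simulated intervals. The members are all genes of the rule, and the sequences are those of the NCBIM37 genome. Genes on a DR are described in full where reported (2 members are counted but not reported one by one), the others by range, in the order of role lists. The members and lists were chosen with earlier results of these data known. With 1 library pair per genotype no test was made. Other overlaps, minimum lengths, joined LADs and the omission of chromosome 19 were tried as alternatives. The expression and FISH data of the study are not analysed here.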

Additional observations from a re-analysis of the deposited data

How the results depend on the processing

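Classes were recomputed under 10 alternatives, with a count taken as unchanged within a factor of 1.5. Asking for at least 50% of the span left 3 IP (*Abcb1a*, *Abcb1b* and *Abcc1*), 1 PI (*Abca15*) and 0 AMB members and made 6 PP. Of all genes, 7.54% were IP, 2.23% PI, 0% AMB and 22.9% PP at that setting. Reading the transcription start alone gave 6 IP (among them *Abcc1*), 1 PI (*Abca16*) and 0 AMB members. By the start, 12% of all genes were IP, 2.23% PI and 0% AMB. DRs of at least 20 kb gave 0 AMB members (0.809% of all genes). LADs joined over gaps of at most 50 kb gave 0 AMB and 6 PP (0.849% and 25.8% of all genes). The AMB count was 2 in the 100 kb centered on each gene (6.06% of all genes) and 3 with LAD differences of any length (4.82%). The AMB count of 0 by the start follows from the setting, since 1 base cannot lie in DRs of both kinds. What part the settings have in the other changes was not tested. All other member counts stayed within the factor of 1.5. The medians of the span in LADs (0% in WT and in KO) did not change where recomputed. No count left that factor with at least 10% of the span, exons only, LADs of at least 20 kb or without chromosome 19. Within it, IP counts ran from 8 with LADs of at least 20 kb (13.4% of all genes) to 14 in the 100 kb (27.1%). II counts ran from 23 in the 100 kb (42.2%) to 40 with at least 50% of the span (67.3%). With at least 10% of the span, *Abcb4* became II and *Abca13* PP. Without LADs under 20 kb or without DRs under 20 kb, *Abca6*, *Abca9*, *Abcb11* and *Abcb4* became II. *Abcb1a* and *Abcb1b* were IP, *Abcb5* and *Abcg3* PP and 23 members II under every setting that kept all chromosomes. The balance of KO-only minus WT-only DR bases changed sign for no member. For a member on DRs of only 1 kind, the settings on shares, exons, starts and DR length could not reverse it. Of the balances of the 18 members in a DR, 63 moved by more than a factor of 1.5 or to 0, and 99 did not. Only 2 of these members kept their class under every setting with all chromosomes. No paired analysis was possible because each genotype has 1 pooled library pair, which also allows no replicate to be left out.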

Other observations

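Differences too short to be a DR touched 6 of the genes described. At *Abca13* a WT-only stretch of 9.22 kb and at *Abca15* a KO-only stretch of 8.77 kb held the start site, so that the start of *Abca15*, a PI gene, was in a LAD of the KO only. *Abcg2* had KO-only stretches of 8.25 and 9.64 kb, *Abca12* a WT-only stretch of 8.11 kb and *Abcc9* a WT-only stretch of 4.34 kb. With differences of any length counted, *Abca15* and *Abcc9* were AMB and *Abca14* was IP.

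In the 100 kb centered on each gene, 6 members without a LAD on the span met a DR. Of all genes, 42.2% were II in that window, against 56.6% by the span, while 27.1% were IP and 9.71% PI. *Abcc6*, *Abcc8* and *Abcd3* met a KO-only DR, and *Abca8a*, *Abca8b* and *Abce1* met a WT-only DR. *Abcc6* and *Abcc8*, 74.2 kb apart on chromosome 7, had 2.43% and 2.70% of the surrounding 1 Mb in WT LADs and 26.9% and 27.1% in KO LADs. *Abcb11* had 0% and 19.1% there, and *Abcc4* 30.8% and 57.3%.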
